A study of Mus musculus with 3 samples.

Results

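Plasminogen activation and the control of clotting were followed through 9 mouse genes, chosen by name from the 22378 gene models of each expression table. They are the plasminogen activator genes Plau and Plat, the activator receptor gene Plaur, the activator inhibitor genes Serpine2 and Serpinb2, the clotting initiator F3, its inhibitor Tfpi, the related inhibitor gene Tfpi2, and the anticoagulant receptor gene Thbd. Each name stood on 1 gene model with status OK in every library, so all 9 were among the 22077 gene names analysed. RNA of FVB mouse mammary cells was sequenced as 3 pooled libraries, 1 for each group, without replicates. Lung-colonizing cells (LCC) were mammary cells given into a vein and recovered from recipient lungs after 1 day by their green fluorescent protein (donors labelled FVB.GFP) or by the dye DDAO (FVB). In an experiment, glands of 8 donors supplied 4 FVB recipients in 2 doses of 2500000 cells, and the pool came from 15 experiments, 42 lungs and 455880 sorted cells. E-Int29-Hi cells were uninjected mammary cells from a sort gate of intermediate EpCAM and high CD29, which the labels describe as holding the colonizing cells, and MG was intact gland, each combined from 3 samples. Mouse ages, and the share of the pool that carried each mark, are not given in the sources used here. Sorting for LCC selected injected cells with no surface marker named, so LCC and E-Int29-Hi differ in gate, in passage through the lung and in time.

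Plasminogen is a circulating proenzyme that urokinase (encoded by Plau) and tissue plasminogen activator (Plat) cut into plasmin, a protease that dissolves fibrin and degrades matrix. Urokinase works at the cell surface on its receptor (Plaur), and serpin inhibitors trap both activators. Clotting starts when tissue factor (F3), a membrane protein of epithelium and of cells around vessels, binds factor VII; tissue factor pathway inhibitor (Tfpi) blocks that complex, and thrombomodulin (Thbd), known best from endothelium, turns thrombin toward activating the anticoagulant protein C. In the mammary gland the plasmin system is known for its part in tissue remodelling after lactation.

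The promoter letters of the genes at the extremes of the data are shown first, because Serpinb2 was the member furthest above the other libraries in LCC, F3 was the most abundant member in MG, and Plaur was abundant in each library. They are the 250 bases before the annotated start in RefSeq (GRCm38.p6, another build than the one named for the tables), all on the plus strand, 5′ to 3′. Serpinb2 lies at chr1:107511173-107511422, F3 at chr3:121723287-121723536 and Plaur at chr7:24462233-24462482. Capitals mark matches, on either strand, to the letters of the AP-1 motif (TGANTCA), the cAMP response element (TGACGTCA), the Sp1 motif (GGGCGG), the EGR1 motif (GCGNGGGCG), the TATA box (TATAAA) or the NF-kB motif, and matches to Sp1 and EGR1 can overlap.
Serpinb2: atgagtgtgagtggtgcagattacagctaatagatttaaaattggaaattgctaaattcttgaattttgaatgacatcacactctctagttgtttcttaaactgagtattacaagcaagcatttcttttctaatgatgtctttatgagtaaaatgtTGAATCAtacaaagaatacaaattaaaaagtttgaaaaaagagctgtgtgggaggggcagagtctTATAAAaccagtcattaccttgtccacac
F3: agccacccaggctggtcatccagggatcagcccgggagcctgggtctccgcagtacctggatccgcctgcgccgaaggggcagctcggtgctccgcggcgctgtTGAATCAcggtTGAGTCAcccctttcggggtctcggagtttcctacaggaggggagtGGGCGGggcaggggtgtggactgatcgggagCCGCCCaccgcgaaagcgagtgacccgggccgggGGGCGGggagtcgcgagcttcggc
Plaur: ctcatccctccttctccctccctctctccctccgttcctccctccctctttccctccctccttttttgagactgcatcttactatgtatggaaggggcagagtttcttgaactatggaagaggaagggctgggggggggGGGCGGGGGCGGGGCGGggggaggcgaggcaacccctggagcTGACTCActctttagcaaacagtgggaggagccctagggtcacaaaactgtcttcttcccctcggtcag
The Serpinb2 window held AP-1 letters 94 to 88 bases before the start and TATAAA 29 to 24 bases before it, with no match to Sp1. F3 held AP-1 letters at 2 places, 146 to 140 and 135 to 129 bases before its start, and 3 matches to Sp1. Plaur held AP-1 letters 69 to 63 bases before the start, beside 3 matches to Sp1 and 1 to EGR1 that overlap each other, but the 30 bases after this start were not found in the GENCODE M21 transcripts of the gene. The promoter table matched 6 of the 9 members (Plaur, Serpine2, Serpinb2, F3, Tfpi and Tfpi2) with 10 start sites. For a start site of Tfpi2, too, the 30 bases after it were not found in the transcripts of its gene. Its window held no match to any motif and is counted among the 10. AP-1 letters stood in 5 of these 10 windows, in 4 of the 6 genes with Tfpi2 being the fourth, and in 6.75% of 32817 promoter windows of the same length. Sp1 letters stood in 6 of the 10 windows against 32.7% of all windows, EGR1 in 3 against 4.70% and TATAAA in 3 against 12.4%. Windows of the same gene are not independent. The Serpinb2 windows overlap, so the same AP-1 and TATAAA letters were counted in each. The remaining TATAAA match, of Tfpi, lay on the other strand, 127 to 122 bases before the start. The NF-kB motif (3.90% of windows) and the cAMP response element (1.55%) matched none of the 10. Each motif was sought only as an exact match to a fixed pattern of letters, so sites that depart from it were not counted. These matches are letters only; binding was not measured.

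Values are FPKM (sequenced fragments mapped to a gene, scaled to its length and to the library's mapped total), so genes can be set side by side within a library. FPKM summed to between 288156 and 375295 per library over the names analysed. Epcam stood at 325, 279 and 209 FPKM and Itgb1, which encodes CD29, at 401, 296 and 198 FPKM (values given for LCC, then E-Int29-Hi, then MG, here and wherever 3 stand together). The library labelled intact gland held little signal of fat cells, with the adipocyte genes Adipoq and Plin1 at 1.12 and 0.575 FPKM. Marker genes of other cells differed between libraries. The 10 endothelial markers summed to 147, 134 and 641 FPKM, the 10 macrophage and monocyte markers to 529, 122 and 210 FPKM, and the 8 fibroblast markers to 1779, 145 and 3206 FPKM. Airway secretoglobin Scgb1a1, a lung gene, stood at 572 FPKM in LCC and under 1 FPKM in the others. In pooled tissue, fewer cells of a type and less RNA per cell cannot be told apart.

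**Figure D1:**
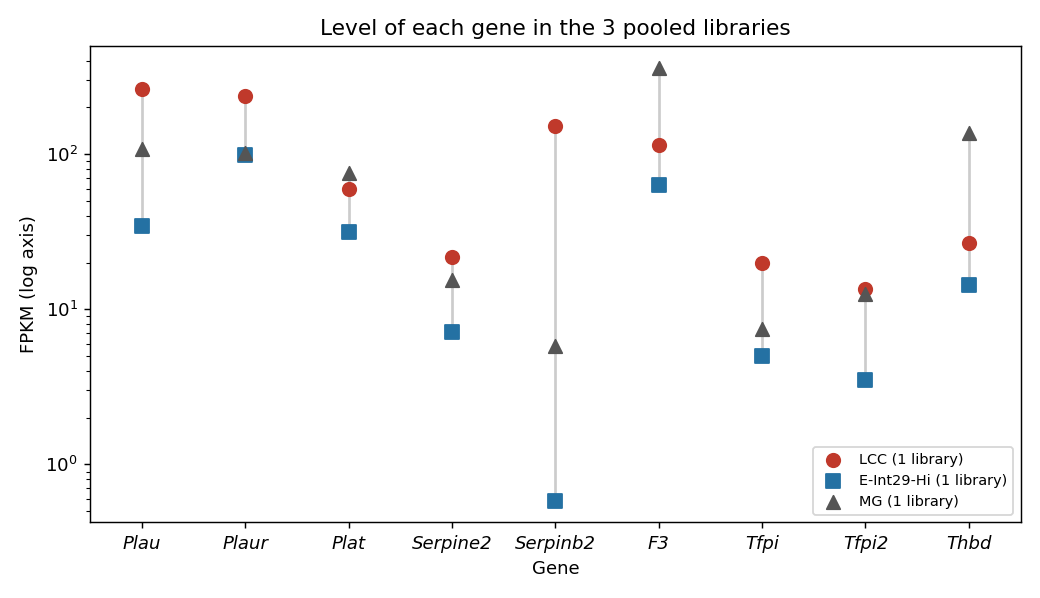
FPKM of the 9 genes (log axis) in LCC, E-Int29-Hi and MG, 1 pooled library each, with grey lines joining the lowest and highest value of a gene. The E-Int29-Hi point is the lowest for every gene, and Serpinb2 spans from 0.584 to 151 FPKM.

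Each of the 9 genes had its lowest value in E-Int29-Hi. LCC held the highest value of Plau, Plaur, Serpine2, Serpinb2, Tfpi and Tfpi2, and MG that of Plat, F3 and Thbd. Within LCC the order ran from Plau over Plaur, Serpinb2, F3, Plat, Thbd, Serpine2 and Tfpi to Tfpi2. In E-Int29-Hi Plaur and F3 led and Serpinb2 came last, and in MG F3 and Thbd led and Serpinb2 was again last. Neighbours in these orders were often close (Plau stood 1.12-fold over Plaur in LCC, 1.08-fold over Plat in E-Int29-Hi and 1.06-fold over Plaur in MG), and no spread between replicates is known against which to order them.

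The activators were both abundant. Plau stood at 265 FPKM in LCC, against 34.3 in E-Int29-Hi and 108 in MG, at percentiles 99.1, 92.3 and 98.2 of all gene names in those libraries. It was thus high in all 3, and LCC stood 7.72-fold above E-Int29-Hi and 2.44-fold above MG. Plat, at 59.6, 31.7 and 75.6 FPKM, varied less, with a highest value 2.38-fold over the lowest, and its LCC level was below that of MG. The activator genes therefore had different orders of libraries. Plau was 4.44 times as abundant as Plat in LCC, 1.08 times in E-Int29-Hi and 1.43 times in MG.

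Plaur, the gene of the receptor that holds urokinase on the cell surface, stood at 235 FPKM in LCC, against 98.9 in E-Int29-Hi and 102 in MG. The E-Int29-Hi and MG values were close, and LCC was 2.38-fold and 2.30-fold above them. Receptor and ligand levels were nearly equal in LCC and MG, with a Plau over Plaur ratio of 1.12 and 1.06. In E-Int29-Hi the ratio was 0.347, the receptor gene standing well above its ligand.

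The inhibitor genes differed far more from each other than the activators did. Serpinb2 encodes plasminogen activator inhibitor 2, a serpin best known from stimulated monocytes, skin and placenta. It stood at 151 FPKM in LCC, against 0.584 in E-Int29-Hi and 5.79 in MG, from percentile 98.3 to percentile 45.6 of gene names. LCC was 26.1-fold above MG, and the 259-fold ratio to E-Int29-Hi rests on a denominator under 1 FPKM whose read number was not given. Serpine2 encodes protease nexin 1, an inhibitor of urokinase and thrombin. Its values were 21.7, 7.13 and 15.5 FPKM, a 3.04-fold span with LCC and MG close to each other.

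F3, the gene of tissue factor, stood at 115 FPKM in LCC, against 63.7 in E-Int29-Hi and 362 in MG. Intact gland was highest, at percentile 99.6 of gene names, 3.16-fold above LCC and 5.68-fold above E-Int29-Hi. Thbd followed the same order of libraries with 26.6, 14.3 and 136 FPKM, MG standing 5.13-fold above LCC and 9.51-fold above E-Int29-Hi. The endothelial markers had their highest sum in MG too, with Cdh5 at 25.9, 23.1 and 145 FPKM and Cldn5 at 6.23, 9.67 and 128 FPKM. So did the fibroblast markers (1779, 145 and 3206 FPKM) and the pericyte markers (77.1, 22.2 and 110 FPKM). The remaining marker lists had their highest sum in LCC or E-Int29-Hi. The part of these cells in the Thbd and F3 values was not tested.

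The tissue factor inhibitor gene Tfpi and the related Tfpi2 were low in comparison. Tfpi stood at 20.0 FPKM in LCC, against 5.01 in E-Int29-Hi and 7.42 in MG, with LCC 2.70-fold above MG. Tfpi2, a related inhibitor whose protein is found mainly in the extracellular matrix and acts on plasmin and other proteases, stood at 13.6, 3.51 and 12.5 FPKM. For Tfpi2 LCC and MG nearly coincided, whereas for Tfpi the low values were E-Int29-Hi and MG. Tfpi was above Tfpi2 in LCC and E-Int29-Hi (1.47-fold and 1.43-fold) and below it in MG, where the ratio was 0.593.

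**Figure D2:**
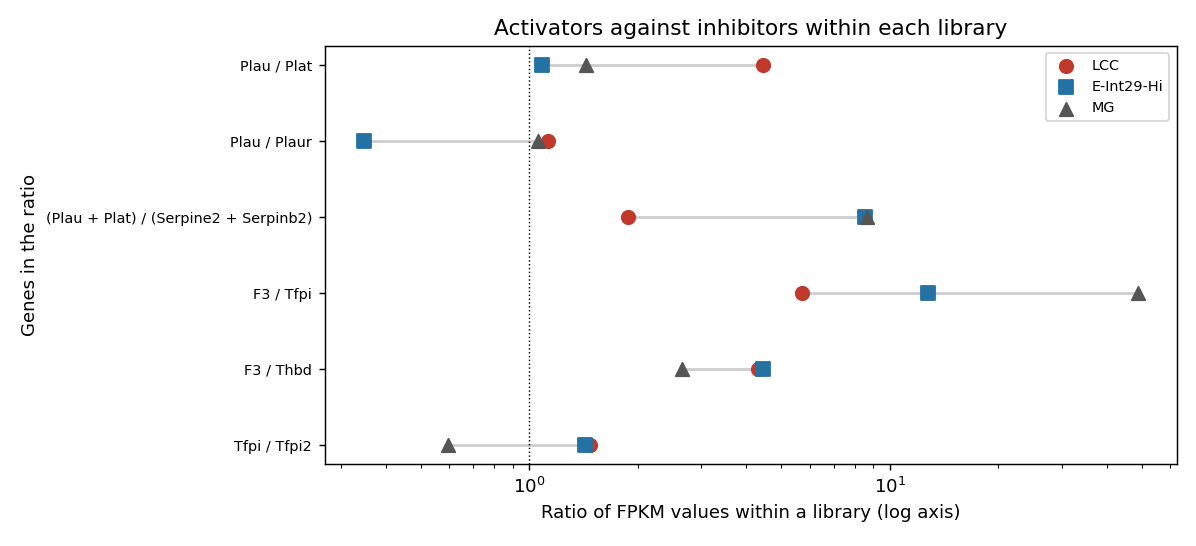
Ratios of FPKM between genes within a library (log axis), with a dotted line at 1 and 1 point per pooled library. LCC has the highest Plau over Plat ratio (4.44) and the lowest ratios of F3 over Tfpi (5.73) and of the activators over Serpine2 and Serpinb2 (1.88).

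Ratios within a library do not change when a whole library is rescaled. F3 stood 5.73 times above Tfpi in LCC, 12.7 times in E-Int29-Hi and 48.8 times in MG. The F3 over Thbd ratio varied less, at 4.31, 4.45 and 2.65, its highest value 1.68-fold over the lowest against 8.52-fold for F3 over Tfpi. The activators Plau and Plat together stood 1.88 times above Serpine2 and Serpinb2 in LCC, against 8.56 times in E-Int29-Hi and 8.64 times in MG. This ratio counts only the 2 member serpins and not every inhibitor of the activators. The serpins went opposite ways in it. Plau over Serpinb2 was lowest in LCC, at 1.75, 58.7 and 18.7, whereas Plau over Serpine2 was highest there, at 12.2, 4.82 and 6.99. All are RNA proportions, and protein or activity was not measured.

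**Figure D3:**
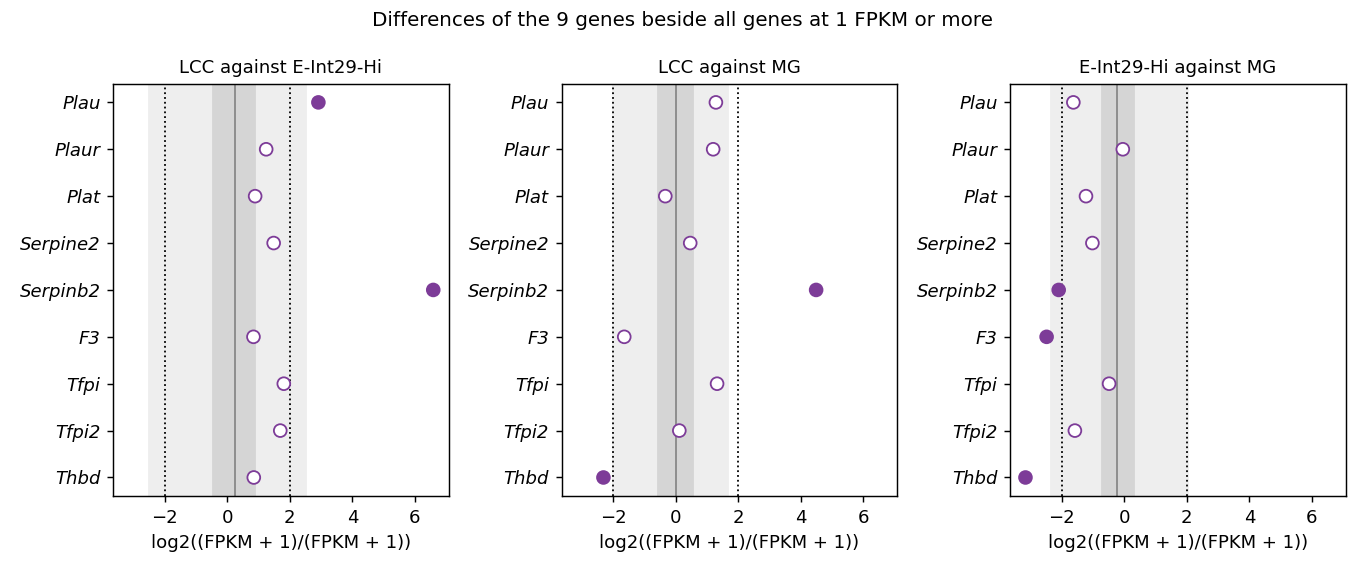
Log2 difference of each gene in the 3 comparisons (points, filled where at least 4-fold apart, dotted lines at the 4-fold bounds). Dark and light grey bands hold the central 50% and 95% of all genes that reached 1 FPKM in one or the other, and the grey line is their median; Serpinb2 lies right of the light band in both LCC panels.

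LCC against E-Int29-Hi set the recovered cells beside the gated population. These libraries differ in gate, in passage through the lung and in time, whose parts in a difference cannot be told apart. Of the 9 members, 2 were at least 4-fold higher in LCC on the log2(FPKM + 1) scale and 0 were lower, against 4.64% and 4.35% of the 12147 genes that reached 1 FPKM in one library or the other. They were Plau (log2 difference 2.91) and Serpinb2 (6.59). All 9 were higher by any amount, where 60.7% of all genes were higher and 39.3% lower. The members' median of 1.48 stood beside a median of 0.26 over all genes, and the smallest difference was that of F3 (0.84). Tfpi (1.81) and Tfpi2 (1.69) lay just under the 4-fold bound. Markers of macrophages (median 1.62), fibroblasts (3.45), pericytes (1.13), luminal cells (3.27) and lung epithelium (1.78) were also higher at their median in this comparison, those of basal cells lower (-3.93) and those of endothelium level (0.02); their part in the members' differences was not tested. Of 8 neutrophil markers 5 (Cxcr2, Mpo, Camp, Ngp and Ly6g) were listed at 0 in LCC, and only S100a8 and S100a9 passed the filter. Both were higher in LCC, S100a8 by 3.55 (14.6 against 0.336 FPKM) and S100a9 by 3.60 (15.9 against 0.397 FPKM), and their part was not tested either.

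LCC against MG, the recovered cells beside intact gland, split the members. Serpinb2 (4.49) was at least 4-fold higher and Thbd (-2.32) at least 4-fold lower, 1 of 9 each, where 1.33% and 2.63% of 12443 genes were. By any amount 6 members were higher and 3 lower, against 50.3% and 49.7% of all genes. Tfpi (1.32), Plau (1.28) and Plaur (1.19) followed Serpinb2 among the higher ones, and F3 (-1.65) followed Thbd among the lower ones. Serpine2 (0.46), Plat (-0.34) and Tfpi2 (0.11) lay near the median gene (0.01), and Tfpi2 changed sign to -0.25 with each library rescaled to the same sum (TPM). In that scaling F3 passed the 4-fold bound at -2.04, giving 2 members lower, with 6.37% of all genes lower. The lung epithelium markers had a median of 1.64 in this comparison, the macrophage and monocyte markers 1.38, the pericyte markers -0.52, the basal markers -0.94, the fibroblast markers -1.03 and the endothelial markers -1.78. The luminal markers had a median of -0.21, with 2 of 8 at least 4-fold lower. S100a8 (0.62) and S100a9 (2.68), the only neutrophil markers passing the filter, were higher in LCC. Of the macrophage and monocyte markers, 3 of 10 were at least 4-fold higher in LCC (Ctss by 3.40, Lyz2 by 2.98 and Lyz1 by 2.05). By any amount 7 of them were higher and 3 lower, the lower ones being Mrc1 (-1.44), Cd14 (-1.33) and Cd163 (-1.29). The part of the cells of these marker lists in the values of Serpinb2 and the other members was not tested.

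E-Int29-Hi against MG, the gated cells beside intact gland, placed every member lower or level. Thbd (-3.16), F3 (-2.49) and Serpinb2 (-2.10) were at least 4-fold lower and 0 of 9 higher, where 3.97% of 12430 genes were lower and 2.60% higher. By any amount 9 were lower and 0 higher, against 61.9% and 38.1% of all genes. The median over the members was -1.58 and over all genes -0.23. Plaur (-0.05) was nearly level, and it changed sign to 0.29 when each library was divided by its median ratio, the setting in which Serpinb2 (-1.91) also fell short of 4-fold, as it did with a pseudocount of 5 FPKM (-0.95), and the lower share of all genes was 2.87%. Plau (-1.63), Tfpi2 (-1.58), Plat (-1.23), Serpine2 (-1.02) and Tfpi (-0.49) lay between. Fibroblast (-4.72), luminal (-3.31), endothelial (-1.97) and pericyte (-1.97) markers had negative medians here, macrophage markers one of -0.28 and basal markers one of 3.33, and their part in these differences was not tested. Since the comparisons share libraries, an order seen in one is not separate evidence for another.

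**Figure D4:**
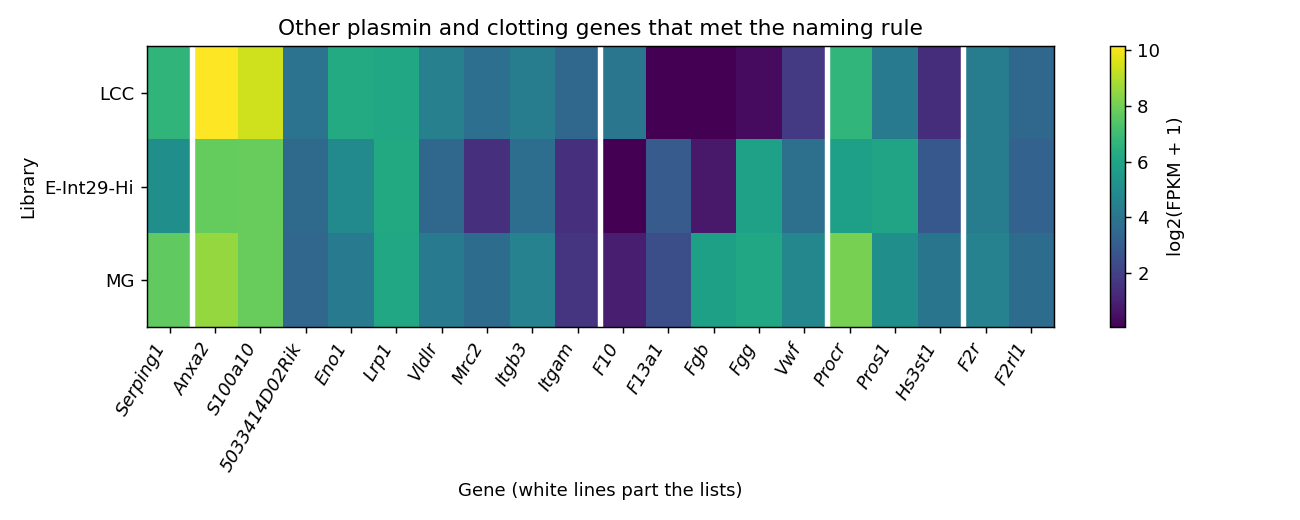
Level, as log2(FPKM + 1), of the other plasmin and clotting genes named by rule, in the 3 pooled libraries, with white lines between the 5 lists. Anxa2 and S100a10 are brightest in LCC, and Fgb and Fgg are dark in LCC and bright in MG.

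The rest of the pathway was read from 5 lists holding 50 other genes, of which 49 were analysed. To set beside their counts, 4.64% of all genes were 4-fold higher and 4.35% lower in LCC against E-Int29-Hi. The shares were 1.33% and 2.63% for LCC against MG, and 2.60% and 3.97% for E-Int29-Hi against MG. Plasminogen itself, from Plg, was listed at 0 in each library, as were Cpb2 and Hrg, all known as products of the liver. Among the 9 other plasmin system genes only Serping1 and Serpini1 reached 1 FPKM in any library. Serping1, the C1 inhibitor gene, stood at 99.2, 32.5 and 203 FPKM, an order of libraries shared with Plat, F3 and Thbd. Of these 2 genes, 0 were 4-fold apart between LCC and E-Int29-Hi or between LCC and MG, and 1 (Serping1, -2.61) was below MG in E-Int29-Hi. Serpini1, which encodes neuroserpin, an inhibitor of tissue plasminogen activator, stood at 1.09, 1.43 and 0.879 FPKM.

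Binding partners of plasminogen and of urokinase and its receptor were present throughout, with 10 of 10 analysed genes at 1 FPKM or more in each library. Anxa2 and S100a10, whose products form a surface complex that binds plasminogen and tissue plasminogen activator, stood at 1140 and 682 FPKM in LCC, 218 and 222 in E-Int29-Hi, and 377 and 224 in MG. Both were highest in LCC, as were Plau and Plaur. Mrc2, a collagen receptor that associates with the urokinase receptor, stood at 12.5, 1.63 and 11.2 FPKM. Itgam, an integrin partner of the urokinase receptor that is also a macrophage marker, stood at 10.1, 1.67 and 2.01 FPKM. Anxa2 (2.38), Mrc2 (2.36) and Itgam (2.05) were at least 4-fold higher in LCC than in E-Int29-Hi, 3 of 10 with 0 lower (median 1.20 over the 10). Of all genes 4.64% were higher and 4.35% lower there, with a median of 0.26. Itgam dropped to 1.85 under median ratio scaling, and with a pseudocount of 5 FPKM Mrc2 dropped to 1.40 and Itgam to 1.18. Against MG none of the 10 was 4-fold apart in LCC (Itgam, at 1.88, passed with a pseudocount of 0.1 FPKM, at 2.27), and in E-Int29-Hi 1 (Mrc2, -2.21) was lower, though not with a pseudocount of 5 FPKM (-1.29) or median ratio scaling (-1.96); the medians were 0.35 and -0.48. Lrp1, an endocytic receptor that clears serpin-protease complexes, stood at 67.7, 72.9 and 66.0 FPKM, a narrow range. Vldlr stood at 21.0, 9.83 and 18.1 FPKM, Itgb3 at 19.0, 12.1 and 22.2 FPKM, the plasminogen receptor gene Plgrkt (named 5033414D02Rik in the tables) at 13.7, 10.8 and 9.43 FPKM, and Eno1, which has near-identical copies, at 73.3, 27.6 and 18.4 FPKM.

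Clotting factor genes were mostly under 1 FPKM in every library, 12 of 17 in all. Of the 4 passing the filter between LCC and E-Int29-Hi, 1 was at least 4-fold higher in LCC and 3 lower (median -2.45); against MG it was 1 and 4 of 5 (median -2.99). Between E-Int29-Hi and MG 0 of 4 were higher and 1 lower (median -0.61). The shares of all genes higher and lower were 4.64% and 4.35%, 1.33% and 2.63%, and 2.60% and 3.97% in these comparisons in turn. F7, whose product binds tissue factor, stood at 0.794 FPKM in LCC, was listed at 0 in E-Int29-Hi and stood at 0.153 in MG. F10, the gene of the next factor in the cascade, stood at 15.2 FPKM in LCC against 0.0623 and 0.853 FPKM, and was the clotting factor higher in LCC, by 3.93 over E-Int29-Hi and 3.13 over MG (log2), though by 1.79 over MG with a pseudocount of 5 FPKM, and just under the 4-fold bound over E-Int29-Hi. With that pseudocount the lower differences of F13a1 (-2.89 from E-Int29-Hi and -2.44 from MG) became -1.21 and -0.93, and that of Vwf from E-Int29-Hi (-2.01) became -1.26, so that of the 3 lower than E-Int29-Hi only Fgg stayed 4-fold apart. Fibrinogen chains were uneven. Fgb stood at 0.0434, 0.687 and 54.1 FPKM, Fgg at 0.276, 56.2 and 66.5 FPKM, and Fga was listed at 0 in LCC and under 0.1 FPKM in the others. Fgg was thus high where Fgb was low in E-Int29-Hi, and MG alone held both. F13a1, a fibrin cross-linking subunit, stood at 0.0363, 6.68 and 4.62 FPKM, and Vwf, an endothelial and platelet protein, at 2.37, 12.6 and 25.8 FPKM.

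Anticoagulant partners of Thbd followed it in part. Procr, the endothelial protein C receptor gene, which is also expressed in mammary epithelium, stood at 104 FPKM in LCC, against 52.6 in E-Int29-Hi and 271 in MG, the same order of libraries as Thbd. Thbd was 0.255, 0.272 and 0.502 times as abundant as Procr in those libraries, so the receptor of protein C exceeded thrombomodulin in each. Pros1, the protein S cofactor, took another order with 17.6, 60.9 and 32.9 FPKM, and Hs3st1, a heparan sulfate sulfotransferase, stood at 1.59, 6.14 and 14.6 FPKM. Proc, the precursor of protein C, was listed at 0 in LCC and under 1 FPKM in the others. Between LCC and E-Int29-Hi 0 of the 5 anticoagulant genes passing the filter were 4-fold apart (median -1.35), though Pros1 went from -1.73 to -2.01 under median ratio scaling. Hs3st1 (-2.59, but -1.57 with a pseudocount of 5 FPKM) was lower in LCC than in MG, 1 of 4 (median -1.12), and Procr (-2.34) lower in the gated cells than in MG, 1 of 5 (median -0.71). The shares of all genes lower than in MG were 2.63% in LCC and 3.97% in the gated cells. Of the protease-activated receptor genes, F2r, a thrombin receptor, stood at 19.4, 18.9 and 22.4 FPKM and F2rl1, whose product is cut by trypsin-like proteases and tissue factor complexes, at 9.79, 8.44 and 11.4 FPKM. Both were close to level across libraries in which F3 spanned 5.68-fold. The filter passed 2 receptors for LCC against E-Int29-Hi, 3 for LCC against MG and 3 for E-Int29-Hi against MG. Of these, 0 were 4-fold apart in any comparison (medians 0.11, -0.20 and -0.40).

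Genes whose pattern over the 3 libraries was most like a member were sought among 6312 others at 10 FPKM or more in their highest library, by the distance between centred log2(FPKM + 1) values. Serpinb2 had no gene within a distance of 0.5, and Mmp12 (0.64), Inhba (0.68) and Tnc (0.89) were nearest. Thbd had 29 such genes, led by Tspan1, Ripk3 and Gvin1, F3 had 89, led by Enpep, Mustn1 and Ccdc88c, and Plau had 96, led by Ttc9, Has1 and Cytip. The other patterns were common, with 242 genes near Tfpi2 (Magt1, Pkdcc and Tead2), 499 near Tfpi (Sh3kbp1, Mgat4b and Rwdd1), 532 near Plat (Gpcpd1 and Csrp2 among the nearest), 695 near Serpine2 (Yme1l1, Mpdu1 and Ikbkg) and 925 near Plaur (Il17rc, Kdelr1 and Pdia4). Among the members the closest pairs were Serpine2 with Tfpi2 (0.40), Plaur with Tfpi (0.42) and F3 with Thbd (0.55), and the most distant was Serpinb2 with Thbd (5.18). With 3 libraries, likeness of this kind is a description of 2 differences.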

How the data were processed

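Libraries were prepared with the TruSeq kit from RNA bound to poly-T beads, and sequenced by Illumina HiSeq, per the labels' protocols. The submitters' processing notes list TopHat 1.4.1, Cufflinks 1.3.0 and build mm9, and give no role for them. The authors deposited FPKM and a status per gene model; read counts, gene lengths and error bounds were not used here, so the depth behind a value is unknown and a 0 may be a failed estimate. Kept were genes whose status was OK in each library (22188 of 22378), and where a name stood on several models (105 names) the one with the highest summed FPKM. Differences are log2((FPKM + 1)/(FPKM + 1)) for genes reaching 1 FPKM in one library or the other, a scale that understates changes of low genes, and 4-fold apart means a size of 2 or more. No test was run, as each group had 1 library. Members and lists were chosen with earlier results of these data known. Every member was named; other listed genes were named at 10 FPKM or more in any library or when 4-fold apart, and the 3 genes nearest to each member. A pair of genes that these rules would name are not reported here, and list counts leave them out. Genes of the marker lists and adipocyte genes, the genes given as listed at 0 or under 1 FPKM, and Serpini1, which did not meet the naming rule, were picked afterwards as examples. The computation was checked on simulated data. Promoter sequences are from RefSeq, matched by symbol. Python 3.11.15, numpy 2.4.6, pandas 2.3.3 and matplotlib 3.10.9 were used.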

Additional observations from a re-analysis of the deposited data

How the results depend on the processing

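The alternatives were a pseudocount of 0.1 or 5 FPKM, a low-value filter of 5 FPKM or none, median ratio scaling, TPM with or without mitochondrial genes, summed gene models and genes of every status. Of 243 member differences recomputed, 231 stayed within 1.5-fold of the reported value and on the same side of the 4-fold bound, and 0 called differences changed sign. The count of members lower in LCC than in MG became 2 under TPM, with or without mitochondrial genes. The other counts stayed within 1.5 times, the 3 members below MG in E-Int29-Hi becoming 2 with a pseudocount of 5 FPKM or median ratio scaling, where Serpinb2 gave -0.95 and -1.91. Serpinb2 in LCC against E-Int29-Hi ran from 4.81 to 7.79 with pseudocounts of 5 and 0.1 FPKM. Scaling moved all genes and the members about alike: for LCC against E-Int29-Hi there were 564 genes higher and 528 lower as deposited, and 451 and 700 with median ratio scaling; for E-Int29-Hi against MG 323 and 494 became 465 and 356. The median gene moved from 0.26 to 0.00 and from -0.23 to 0.07 in these comparisons, while the members' median moved from 1.48 to 1.22 and from -1.58 to -1.30, and the all-gene median moved under TPM to -0.41 for LCC against MG. The members' median less that of all genes ran from 0.98 to 1.43 for LCC against E-Int29-Hi, from 0.36 to 0.52 for LCC against MG and from -1.48 to -0.90 for E-Int29-Hi against MG. Error bounds on FPKM were planned as an alternative and not run. No paired analysis was possible because each group has 1 library.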

Other observations

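The genes beside the members on the chromosome were looked at after the members' values were seen. Taking the nearest protein-coding genes on each side (2 per side, order from RefSeq GRCm38.p6), 31 of 36 neighbours had a value. Between LCC and E-Int29-Hi 1 of 22 passing the filter was 4-fold apart (of all genes, 4.64% were higher and 4.35% lower), Camk2g beside Plau, at 4.64 against 33.1 FPKM where Plau stood at 265 against 34.3 FPKM. The serpin genes near Serpinb2 that had a value were low in LCC, with Serpinb7 and Serpinb11 listed at 0 and Serpinb8 at 2.65 FPKM. Serpinb2 stood at 151 FPKM there. Serpinb10, directly beside Serpinb2, had no value. Between LCC and MG 0 of 21 were 4-fold apart, where 1.33% of all genes were higher and 2.63% lower. Between E-Int29-Hi and MG 2 of 22 were (of all genes, 2.60% higher and 3.97% lower), Arhgap29 near F3 (15.1 against 73.7 FPKM) and Cd93 beside Thbd (8.24 against 38.4 FPKM). These shares are near those of all genes. Cd93, known from endothelium, stood at 15.4 FPKM in LCC and had the same order of libraries as Thbd.

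Itgav, a subunit of the vitronectin receptor, was left out of the counts because its E-Int29-Hi value had the status FAIL, and stood at 102 FPKM in LCC, against 77.4 in E-Int29-Hi and 88.4 in MG.

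The summed levels of the other marker lists, for LCC, E-Int29-Hi and MG in turn, were 9.56, 11.5 and 11.02 FPKM for 6 platelet genes, 77.1, 22.2 and 110 FPKM for 5 pericyte genes, and 30.7, 1.86 and 11.97 FPKM for 8 neutrophil genes. The 8 basal genes summed to 653, 7315 and 460 FPKM, the 8 luminal genes to 4677, 323 and 2466 FPKM and the 8 lung epithelium genes to 771, 162 and 108 FPKM. Outside LCC most of the lung epithelium sum came from Pdpn, which stood at 144, 157 and 65.2 FPKM. Aqp5 stood at 0.684, 1.03 and 30.1 FPKM, and Abca3 at 7.85, 2.17 and 11.5 FPKM. Scgb1a1 and the surfactant genes Sftpa1, Sftpb, Sftpc and Sftpd were each under 1 FPKM outside LCC. The 4 mesothelial genes stood under 1 FPKM throughout, in sums of 0.853, 0.184 and 0.705 FPKM.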
